A study of Mus musculus with 14 samples.

Results

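Ttr, Clic6, Kl, Kcnj13, Folr1, Slc4a5, Aqp1, Otx2, Enpp2 and Cldn2 are 10 genes of the choroid plexus epithelium, chosen by name as a sign of ventricle tissue carried along with dissected hippocampus. They are 10 of the 55450 genes in the table of the series, and all 10 were found under these symbols. The choroid plexus hangs in the brain ventricles, next to the hippocampus. Its epithelium secretes cerebrospinal fluid by moving ions and water from blood, closes the blood-cerebrospinal fluid barrier with tight junctions, and releases carrier proteins, with Ttr as its best known product. Hippocampal neurons and glia are not known as main sources of most of these transcripts, so their levels can be read beside the dissection of each sample.

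Hippocampal poly(A) RNA of female C57BL/6J mice at 10 weeks of age was sequenced with 1 library per mouse. The 3 Δ3102 mice lacked the membrane estrogen receptor GPR30 globally after CRISPR/Cas9 editing. The 4 AG-KO mice (GPR30fl/fl;GFAP-Cre) lost it where the astrocyte promoter of GFAP drives Cre, and the 4 NG-KO mice (GPR30fl/fl;NSE-Cre) lost it where the promoter of neuron-specific enolase drives Cre. The 3 WT mice were the controls of all 3 genotypes, and floxed or Cre mice without the deletion were not analysed here. The labels do not say whether mice of a group were littermates, and p-values measure the spread between these mice.

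The libraries held 44527024 to 62669865 counts each. Gper1, the gene of GPR30, was at 0.0686, 0.145 and 0.0124 FPKM (fragments per kilobase of transcript, scaled to library size) in Δ3102 mice, against 0.797, 1.15 and 3.05 FPKM in WT mice. In AG-KO mice it was at 0.540, 1.38, 0.891 and 1.22 FPKM and in NG-KO mice at 1.10, 1.41, 0.975 and 1.12 FPKM. The hippocampal neuron markers, 10 genes such as Prox1 and Slc17a7, summed to 405 to 559 FPKM in all 14 libraries. Single markers varied more than this sum, with Prox1 at 4.13 to 11.5 FPKM and Slc17a7 at 131 to 238 FPKM.

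Δ3102 replicate 1 stood apart from all other libraries in these genes. It held the highest FPKM of the 14 libraries for 9 of the 10 genes, all but Otx2, whereas 6.41% of the 18059 genes tested were highest in it. Its level was 6.01 times the next highest library for Ttr, 3.96 times for Clic6, 3.76 times for Slc4a5, 3.22 times for Folr1, 2.94 times for Kcnj13 and 2.65 times for Enpp2. The ratio was 2.17 for Aqp1, 1.84 for Kl and 1.54 for Cldn2, and for Otx2 this library came second at 0.763 times the highest. All 10 genes were more than 1 on the log2(FPKM + 0.1) scale above the median of the other 13 libraries, with a median of 2.503, and 4.46% of all tested genes were. Without this library, 6 of the 10 genes (Ttr, Clic6, Kl, Kcnj13, Slc4a5 and Enpp2) were highest in AG-KO replicate 3, against 6.44% of the genes tested. Slc4a5 and Otx2 were not among the tested genes, over which these percentages were taken. In bulk RNA, fewer cells of a type and less RNA per cell cannot be told apart.

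**Figure D1:**
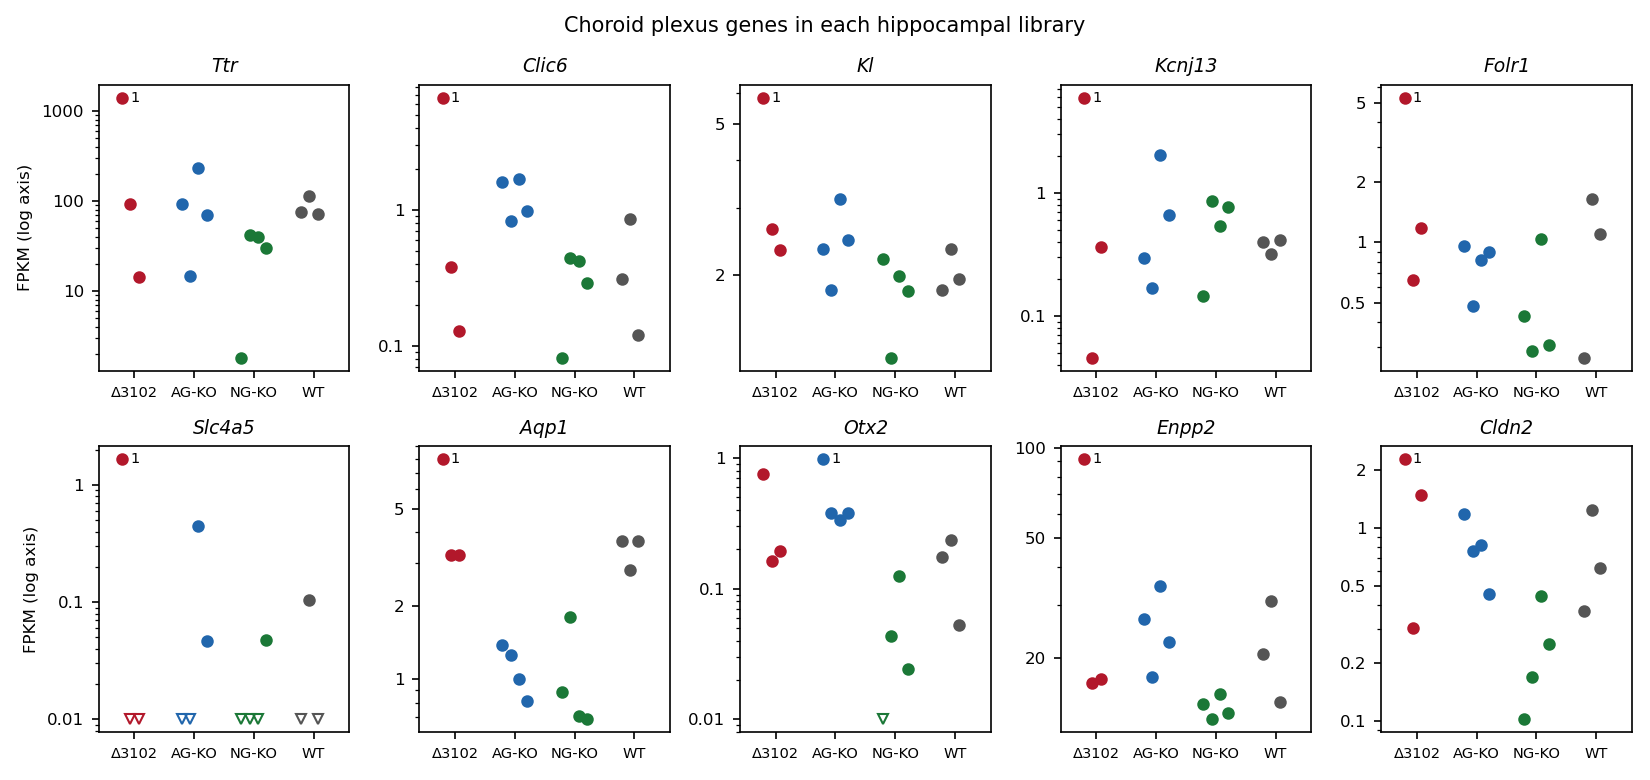
FPKM of the 10 choroid plexus genes (log axis, 1 panel per gene) in each mouse of the 4 genotypes. Points are single libraries, the replicate number is given beside the highest one, and open triangles stand for libraries with 0 counts of the gene, drawn at 0.01. Δ3102 replicate 1 is the highest point in every panel but that of Otx2, where AG-KO replicate 1 is at 0.980 FPKM.

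Ttr (chr18:20665280-20674321, GRCm38) encodes transthyretin, the carrier of thyroxine and of retinol binding protein that the choroid plexus epithelium secretes into cerebrospinal fluid and the liver into blood. It was at 1405, 92.7 and 14.4 FPKM in Δ3102 mice, at 91.9, 14.6, 233.7 and 69.9 FPKM in AG-KO mice and at 1.81, 42.1, 39.3 and 30.2 FPKM in NG-KO mice, against 76.1, 114 and 72.0 FPKM in WT mice. Mice of the same genotype differed widely, and the highest library was at 776 times the lowest. Ttr took 0.187% of all counts in Δ3102 replicate 1 (95% Wilson interval 0.186% to 0.188%) and 0.000241% in NG-KO replicate 1 (0.000204% to 0.000285%), where the intervals cover counting error only. All 4 NG-KO mice were below all 3 WT mice, but the log2 fold change of -1.62 (SE 1.22) did not pass the edgeR test (adjusted p = 0.747). The other differences in Ttr did not pass either, at a log2 fold change of 2.53 (SE 1.37, edgeR adjusted p = 0.9997) in Δ3102 and 0.27 (SE 1.22, adjusted p = 0.944) in AG-KO against WT mice. Without replicate 1, the Δ3102 value was -0.69 (SE 1.16).

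Clic6, Kcnj13, Slc4a5 and Aqp1 belong to the ion and water transport of the epithelium. Clic6 (chr16:92485736-92541243), a chloride intracellular channel family member, was at 6.69, 0.381 and 0.128 FPKM in Δ3102 mice, at 1.59, 0.826, 1.69 and 0.971 FPKM in AG-KO mice and at 0.0814, 0.438, 0.422 and 0.288 FPKM in NG-KO mice, against 0.307, 0.856 and 0.120 FPKM in WT mice. All 4 AG-KO mice were above all 4 NG-KO mice, with a log2 fold change of 2.06 (SE 0.99, edgeR adjusted p = 0.373), and 3 of the 4 were also above all WT mice. Clic6 entered the tested genes, which needed 0.5 FPKM in 3 libraries, only through the AG-KO mice. Against WT mice its log2 fold change was 2.48 (SE 1.15, edgeR adjusted p = 0.9997) in Δ3102 and 1.59 (SE 1.07, adjusted p = 0.516) in AG-KO mice, and -0.73 (SE 0.82) in Δ3102 without replicate 1. Kcnj13 (chr1:87386363-87394729), an inward rectifier potassium channel of the apical membrane, was at 5.98, 0.0458 and 0.366 FPKM in Δ3102 mice, at 0.297, 0.168, 2.04 and 0.666 FPKM in AG-KO mice and at 0.145, 0.856, 0.545 and 0.765 FPKM in NG-KO mice, against 0.404, 0.320 and 0.412 FPKM in WT mice. Only 4 reads were counted for Kcnj13 in Δ3102 replicate 2, where Ttr was at 92.7 FPKM, and its 3 WT values lay close together, inside the range of every other genotype. Its log2 fold change of 2.47 (SE 1.304) in Δ3102 against WT mice was -0.85 (SE 1.10) without replicate 1.

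Slc4a5 (chr6:83219828-83304944), a sodium bicarbonate cotransporter of the same epithelium, was nearly confined to a few libraries. It had 628, 0 and 0 counts in Δ3102 mice, 0, 0, 130 and 17 counts in AG-KO mice and 0, 0, 0 and 15 counts in NG-KO mice, against 0, 43 and 0 counts in WT mice. A count of 0 allows up to 3 counts, of 44527024 in the shallowest library, for counting error only. The 2 libraries with over 100 counts were Δ3102 replicate 1 at 1.67 FPKM and AG-KO replicate 3 at 0.443 FPKM, the same 2 that were highest in Ttr. Slc4a5 and Otx2 did not reach an FPKM of 0.5 in 3 libraries, and their fold changes come from a fit of all genes with counts.

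Promoter windows are shown for Kcnj13 and Slc4a5, a channel and a cotransporter that were highest in the same 2 libraries. With them is 1 of 4 windows of Otx2, a transcription factor of the epithelium. They were chosen among the genes whose levels were related to that of Ttr over the 14 libraries (r of 0.612 to 0.734 for these 3). Kl (r = 0.625) and Cldn2 (r = 0.595) were related to Ttr too, and their windows are not shown. Of the Otx2 windows, the 1 that matches the motif given below is shown. Without Δ3102 replicate 1, r was 0.412 for Kcnj13, 0.486 for Otx2 and 0.499 for Slc4a5, and none passed the adjusted permutation test. The windows are from RefSeq on GRCm38.p6, from 250 bases before to 50 after a transcription start. They read 5′ to 3′ on the strand of the gene, and 6 of the 10 genes had one.
Kcnj13 (chr1:87394680-87394979, minus strand): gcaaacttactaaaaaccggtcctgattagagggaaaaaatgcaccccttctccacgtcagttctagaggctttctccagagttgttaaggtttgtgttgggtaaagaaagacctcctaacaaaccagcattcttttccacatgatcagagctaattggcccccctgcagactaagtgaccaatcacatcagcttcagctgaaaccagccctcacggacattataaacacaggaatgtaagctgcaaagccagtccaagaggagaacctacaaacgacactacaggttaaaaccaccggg
Slc4a5 (chr6:83237125-83237424, plus strand): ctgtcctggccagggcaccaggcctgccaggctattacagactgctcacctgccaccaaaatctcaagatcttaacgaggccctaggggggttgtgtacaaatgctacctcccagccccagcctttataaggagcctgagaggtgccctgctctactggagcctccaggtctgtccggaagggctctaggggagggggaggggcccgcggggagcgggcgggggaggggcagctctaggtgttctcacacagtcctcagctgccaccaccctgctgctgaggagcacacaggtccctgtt
Otx2 (chr14:48665060-48665359, minus strand): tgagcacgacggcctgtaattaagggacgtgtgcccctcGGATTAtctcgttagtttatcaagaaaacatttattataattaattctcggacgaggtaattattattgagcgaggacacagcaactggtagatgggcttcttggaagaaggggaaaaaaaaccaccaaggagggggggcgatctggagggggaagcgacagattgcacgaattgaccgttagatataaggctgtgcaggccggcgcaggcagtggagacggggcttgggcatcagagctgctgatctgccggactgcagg
Capitals mark TAATCC or its reverse complement GGATTA, the core letters that OTX family factors bind, searched on both strands. Among the 9 windows of Kcnj13, Kl, Aqp1, Slc4a5, Otx2 and Cldn2, 1 held the motif, that of Otx2 above, beside 7.06% of the 32851 mouse windows in the table. A match is a description of the letters and not of a bound site.

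Aqp1 (chr6:55336432-55348555) is the water channel of the apical membrane and is also abundant in red cells and kidney tubules. Its level was lower in AG-KO and NG-KO mice than in Δ3102 and WT mice. It was at 7.99, 3.24 and 3.22 FPKM in Δ3102 mice, at 1.38, 1.25, 1.002 and 0.811 FPKM in AG-KO mice and at 0.884, 1.79, 0.710 and 0.684 FPKM in NG-KO mice, against 3.68, 2.80 and 3.69 FPKM in WT mice. All AG-KO and all NG-KO mice were below all WT mice and below all Δ3102 mice. Both are floxed Cre lines, and floxed or Cre mice without the deletion were not analysed here. An effect of the deletion and one of the line or its breeding cannot be told apart. The log2 fold change was -1.58 (SE 0.38) in AG-KO and -1.71 (SE 0.38) in NG-KO against WT mice. The edgeR adjusted p was 0.138 in AG-KO and 0.213 in NG-KO mice, and the DESeq2 adjusted p was 0.00897 in AG-KO and 0.00482 in NG-KO mice, so the call depends on the tool. The red cell list (Hba-a1, Hba-a2, Hbb-bs, Hbb-bt and Alas2) summed to 167 to 434 FPKM in AG-KO and 246 to 531 FPKM in NG-KO mice, against 488 to 1125 FPKM in WT mice, and all 5 of its genes had negative fold changes in both comparisons. The 15 hepatocyte genes summed to 2.48 to 178 FPKM in AG-KO and 9.20 to 213 FPKM in NG-KO mice, against 510 to 611 FPKM in WT mice. The kidney tubule list summed to 23.0 to 137 FPKM in AG-KO and 2.30 to 106 FPKM in NG-KO mice, against 4.50 to 519 FPKM in WT mice. The part of red cells and of other tissue in the Aqp1 difference was not tested.

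Folr1 and Kl stand for uptake and signaling. Folr1 (chr7:101858331-101870788), the folate receptor that carries folate across the epithelium and recovers it in the kidney, was at 5.30, 0.646 and 1.18 FPKM in Δ3102 mice, at 0.961, 0.480, 0.816 and 0.898 FPKM in AG-KO mice and at 0.428, 0.287, 1.04 and 0.305 FPKM in NG-KO mice, against 0.264, 1.65 and 1.10 FPKM in WT mice. The genotypes overlapped. Kl (chr5:150952607-150993817), the FGF23 coreceptor Klotho, was at 5.86, 2.63 and 2.33 FPKM in Δ3102 mice, at 2.34, 1.83, 3.17 and 2.47 FPKM in AG-KO mice and at 2.20, 1.21, 1.98 and 1.81 FPKM in NG-KO mice, against 1.83, 2.33 and 1.95 FPKM in WT mice. Kl spanned the smallest range of the 8 genes detected in every library, 4.83 times from lowest to highest, and is also expressed by hippocampal neurons. Its log2 fold change of 0.83 (SE 0.33) in Δ3102 against WT mice had an unadjusted edgeR p of 0.0264 (adjusted p = 0.9997), and 0.29 (SE 0.26) without replicate 1.

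Otx2 (chr14:48657677-48667515), a homeobox transcription factor that maintains the epithelium and is also expressed in parts of the thalamus and midbrain, was the only 1 of the 10 genes not highest in Δ3102 replicate 1. It was at 0.747, 0.161 and 0.194 FPKM in Δ3102 mice, at 0.980, 0.382, 0.334 and 0.376 FPKM in AG-KO mice and at 0, 0.0433, 0.125 and 0.0242 FPKM in NG-KO mice, against 0.174, 0.234 and 0.0527 FPKM in WT mice, where 0 stands for a library with 0 counts. All 4 AG-KO mice were above all NG-KO and all WT mice. In the fit without a filter, the log2 fold change between AG-KO and NG-KO mice was 3.39 (SE 0.96), with an edgeR adjusted p of 0.299 and a DESeq2 adjusted p of 0.00737. That DESeq2 fit called 1.55% of its 32869 genes. The ependymal list of 13 genes was also highest in AG-KO replicate 1, at a sum of 75.2 FPKM, and summed to 28.3 to 75.2 FPKM in AG-KO mice and 22.5 to 36.0 FPKM in NG-KO mice, with Foxj1 at 9.84 FPKM in AG-KO replicate 1. The thalamus and habenula list summed to 41.8 to 82.7 FPKM in AG-KO mice and 36.5 to 72.8 FPKM in NG-KO mice. The part of these tissues in the Otx2 level was not tested.

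Enpp2 and Cldn2 encode a secreted enzyme and a junction protein. Enpp2 (chr15:54838901-54920125), autotaxin, which makes lysophosphatidic acid and is also expressed by oligodendrocytes, was at 91.6, 16.5 and 17.1 FPKM in Δ3102 mice, at 27.0, 17.3, 34.6 and 22.6 FPKM in AG-KO mice and at 14.04, 12.5, 15.3 and 13.2 FPKM in NG-KO mice, against 20.7, 30.8 and 14.3 FPKM in WT mice. All AG-KO mice were above all NG-KO mice, with a log2 fold change of 0.91 (SE 0.47, edgeR adjusted p = 0.415). The 10 oligodendrocyte genes did the same in their sum, at 383 to 709 FPKM in AG-KO and 247 to 357 FPKM in NG-KO mice, and their part in the Enpp2 difference was not tested. Cldn2 (chrX:139800828-139811386), the pore-forming claudin of leaky epithelia such as choroid plexus and proximal kidney tubule, was at 2.29, 0.303 and 1.49 FPKM in Δ3102 mice, at 1.19, 0.762, 0.819 and 0.458 FPKM in AG-KO mice and at 0.102, 0.170, 0.444 and 0.249 FPKM in NG-KO mice, against 0.372, 1.25 and 0.621 FPKM in WT mice. All AG-KO mice were above all NG-KO mice, with a log2 fold change of 1.75 (SE 0.61), an unadjusted edgeR p of 0.0130 and an adjusted p of 0.239. Against WT mice, Cldn2 in NG-KO mice had a log2 fold change of -1.62 (SE 0.64, edgeR adjusted p = 0.467), and NG-KO replicate 3 lay inside the WT range.

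None of the 8 genes that entered the filtered fit passed an edgeR adjusted p of 0.05 in any of the 4 comparisons. Among all tested genes, 0.0111% passed in Δ3102, 0.0221% in AG-KO and 0.072% in NG-KO against WT mice, and 0.111% in AG-KO against NG-KO mice. At an unadjusted p under 0.05, 1 of the 8 passed in Δ3102 (Kl, beside 4.45% of tested genes), 1 in AG-KO (Aqp1, beside 14.4%) and 2 in NG-KO mice (Aqp1 and Cldn2, beside 9.16%), all against WT. Between AG-KO and NG-KO mice, 1 of the 8 passed (Cldn2, beside 14.1%). Gper1, the deleted gene, had a log2 fold change of -4.36 in Δ3102 against WT mice. Its adjusted p was 0.220 in edgeR and 4.3e-08 in DESeq2. Not passing the edgeR test therefore does not show that a gene did not differ. DESeq2 called Aqp1 in AG-KO and in NG-KO against WT mice and no other of the 8 genes. It called 2.26% of its genes in AG-KO, 0.916% in NG-KO and 0.161% in Δ3102 against WT mice, and 2.39% in AG-KO against NG-KO mice. These 3 comparisons share the WT mice, and their values are not independent of each other.

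Fold changes pointed 1 way in 2 comparisons. In Δ3102 against WT mice all 10 were positive, with a median of 1.08 over the 8 in the filtered fit beside -0.00375 over all tested genes, and without replicate 1 the signs of Ttr, Clic6, Kcnj13, Folr1, Slc4a5, Aqp1 and Enpp2 turned negative. In AG-KO against NG-KO mice all 10 were positive, with a median of 0.77 beside -0.00933, but without AG-KO replicate 3 Kcnj13 was at -0.57 and without NG-KO replicate 4 Aqp1 was at -0.016. Other lists pointed the same way in this comparison, with all 13 ependymal genes (median 0.66), all 10 oligodendrocyte genes (0.81, 5 of them called by DESeq2) and all 8 tested kidney tubule genes (1.22) positive, while all 15 hepatocyte genes were negative (-1.88). The part of these tissues in the values of the 10 genes was not tested. In NG-KO against WT mice 9 of 10 were negative, all but Kcnj13, and in AG-KO against WT mice 8 of 10 were positive, all but Folr1 and Aqp1. Groups did not overlap for 0 of the 8 genes in Δ3102 (11.5% of tested genes), 1 in AG-KO (Aqp1, 13.3%) and 2 in NG-KO (Ttr and Aqp1, 10.9%) against WT mice, and for 3 between AG-KO and NG-KO mice (Clic6, Enpp2 and Cldn2, 6.77%). Clic6 reached 0.5 FPKM in 6 libraries, all AG-KO libraries among them. It passed the filter only through the AG-KO mice, so nothing is read from its separation.

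**Figure D2:**
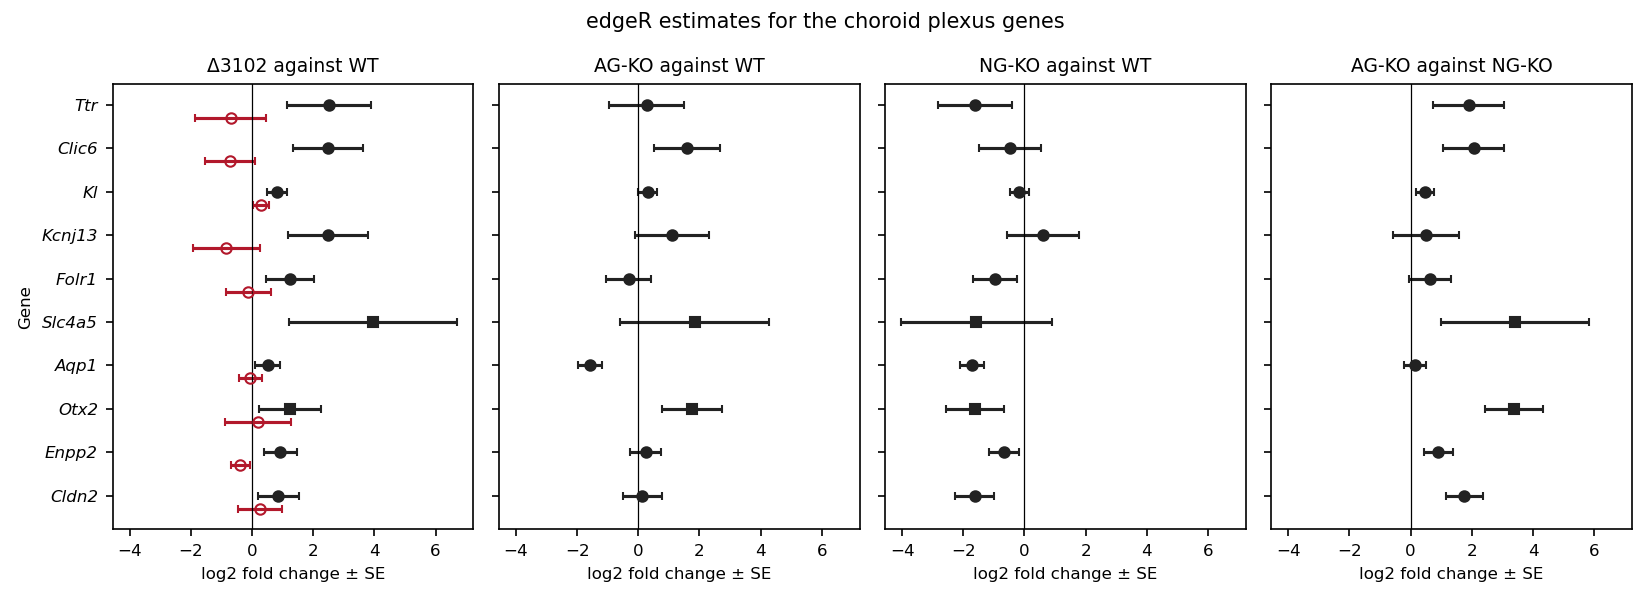
log2 fold changes ± SE of the 10 genes in the 4 comparisons (edgeR, all 14 libraries). Circles are genes of the filtered fit and squares are Slc4a5 and Otx2 from the fit without a filter, and open circles in the first panel are the values without Δ3102 replicate 1, not drawn for Slc4a5, whose remaining Δ3102 libraries have 0 counts. The open circles lie near or below 0, with Ttr at -0.69 instead of 2.53, and Aqp1 is the gene farthest below 0 in AG-KO against WT mice.

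Across the 14 libraries the other 9 genes were compared with Ttr on the log2(FPKM + 0.1) scale. Pearson's r was 0.784 for Clic6, 0.782 for Enpp2, 0.734 for Slc4a5, 0.668 for Kcnj13, 0.625 for Kl, 0.620 for Folr1, 0.612 for Otx2, 0.595 for Cldn2 and 0.520 for Aqp1. By permutation tests adjusted over the 9 relations, 8 passed (adjusted p of 0.00594 to 0.0301) and Aqp1 did not (permutation p = 0.0545, adjusted p = 0.0545). Before adjustment, the permutation p of r over the 14 libraries was 0.00132 for Clic6, 0.00091 for Enpp2, 0.00279 for Slc4a5, 0.0131 for Kcnj13, 0.0267 for Kl, 0.0244 for Folr1, 0.0187 for Otx2 and 0.0218 for Cldn2. Spearman's rho ranged from 0.305 for Kcnj13 to 0.705 for Enpp2, and 2 passed, Clic6 and Enpp2, both at a permutation adjusted p of 0.0424. Without Δ3102 replicate 1, r ranged from 0.256 for Aqp1 to 0.630 for Clic6 and none of the 9 passed. Without the 2 libraries farthest from the median of Ttr, NG-KO replicate 1 and Δ3102 replicate 1, r was 0.657 for Enpp2, 0.605 for Slc4a5, 0.510 for Kl and 0.494 for Clic6. It was 0.269 for Kcnj13, 0.237 for Otx2, 0.224 for Folr1, 0.0804 for Aqp1 and 0.0226 for Cldn2. All 8 relations that had passed depend on Δ3102 replicate 1, as none passed without it. Within genotypes, r of the deviations from the genotype means was 0.859 for Clic6, 0.776 for Kcnj13, 0.731 for Slc4a5 and 0.712 for Enpp2. It was 0.596 for Otx2, 0.537 for Kl, 0.50 for Folr1, 0.420 for Aqp1 and 0.384 for Cldn2. These within-genotype values include Δ3102 replicate 1.

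**Figure D3:**
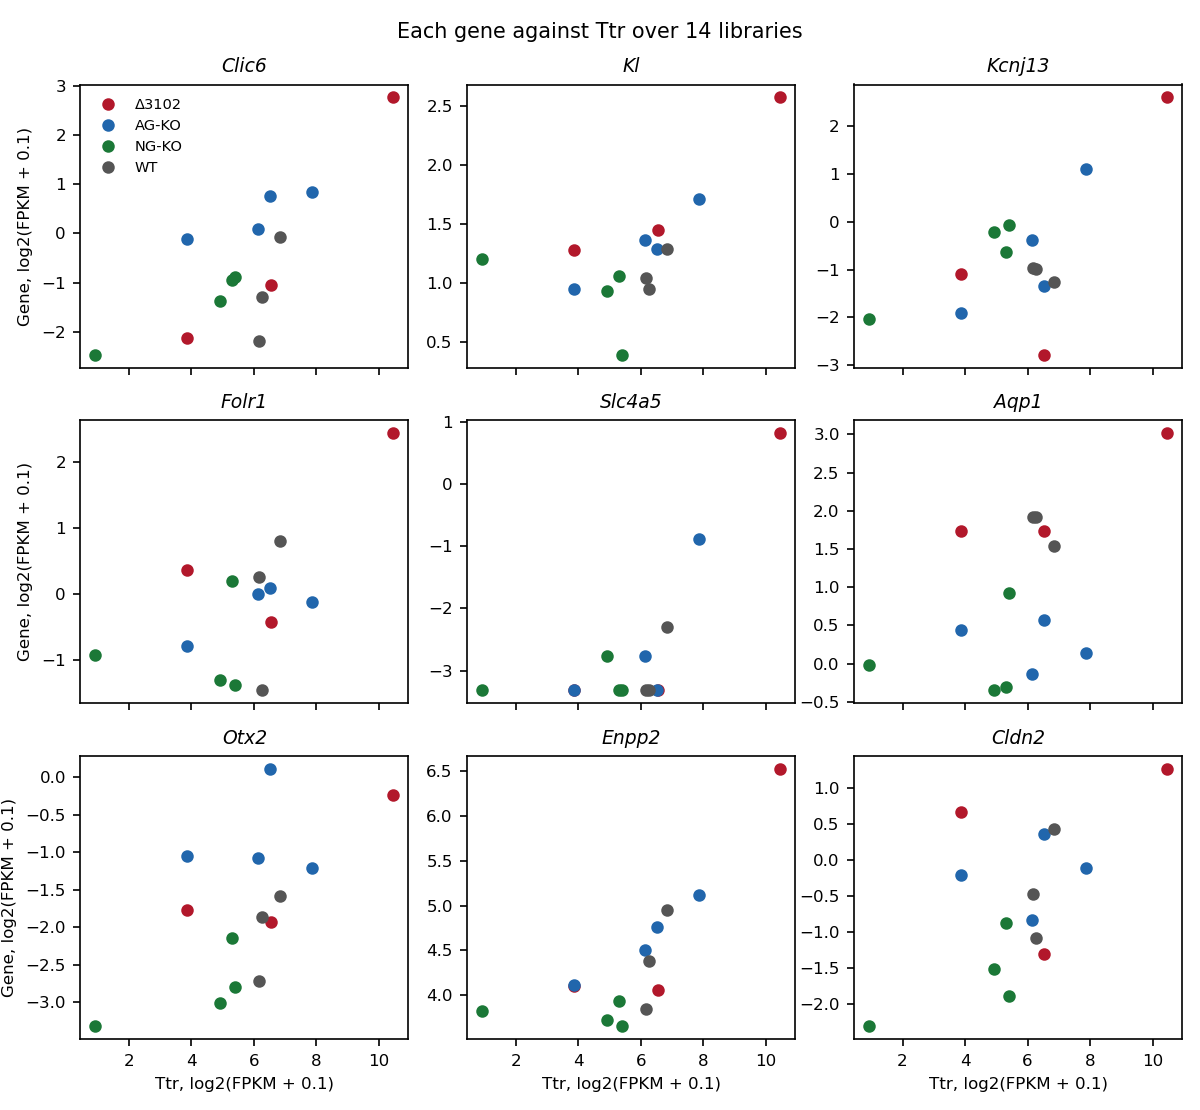
Each of the 9 other genes (vertical axis) against Ttr (horizontal axis), both as log2(FPKM + 0.1), with 1 point per library coloured by genotype. Δ3102 replicate 1 lies alone at the right of each panel and NG-KO replicate 1 at the left, and r ranges from 0.520 (Aqp1) to 0.784 (Clic6).

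Levels relative to Ttr differed between the 2 libraries highest in it for most genes. Per 100 FPKM of Ttr, Kl was at 0.417 FPKM in Δ3102 replicate 1 and 1.36 FPKM in AG-KO replicate 3, and Enpp2, which has other sources in the hippocampus, was at 6.52 FPKM in Δ3102 replicate 1 and 14.8 FPKM in AG-KO replicate 3. In Δ3102 replicate 1, Kcnj13 was at 0.426, Cldn2 at 0.163, Otx2 at 0.0532, Slc4a5 at 0.119 and Clic6 at 0.476 FPKM. In AG-KO replicate 3, Kcnj13 was at 0.871, Cldn2 at 0.351, Otx2 at 0.143, Slc4a5 at 0.189 and Clic6 at 0.723 FPKM, all higher. Folr1 was close in both, at 0.377 FPKM in Δ3102 replicate 1 and 0.349 FPKM in AG-KO replicate 3, as it was in WT replicate 1 at 0.347 FPKM, and Aqp1 was lower in AG-KO replicate 3, at 0.568 FPKM in Δ3102 replicate 1 and 0.429 FPKM in AG-KO replicate 3. In WT replicate 1, Ttr was at 76.1 FPKM while Slc4a5 and Kcne2, a potassium channel subunit of the same epithelium, both had 0 counts.

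Of 49 further genes listed for the choroid plexus, 28 were highest in Δ3102 replicate 1, beside 6.41% of tested genes. On the log2 scale, 21 were more than 1 above the median of the other libraries, beside 4.46%, with a median of 0.79. The 49 include genes below the filter, such as Kcne2, F5 and Mfrp, while both percentages are over tested genes only. The 49 genes were chosen with earlier results of these data known. Of the 37 that were tested in the comparisons, none passed an edgeR adjusted p of 0.05 in any comparison. DESeq2 called 1 of the 37 in NG-KO against WT mice (Car14, a membrane carbonic anhydrase), or 2.70% beside 0.916% of all genes, and 1 between AG-KO and NG-KO mice (Trpv4, an osmosensitive cation channel), or 2.70% beside 2.39%. At an unadjusted edgeR p under 0.05, 2 of the 37 were higher in Δ3102 mice (Slco1c1 and Atp2b3), or 5.41% beside 4.45% of tested genes. In AG-KO mice 1 was higher (Rdh5) and 2 lower (Perp and Cox8b), or 8.11% beside 14.4%, and in NG-KO mice 5 were lower (Trpv4, Slc12a2, Calml4, Car14 and Krt8), or 13.5% beside 9.16%, all against WT. Between AG-KO and NG-KO mice, 5 were higher (Trpv4, Slc12a2, Rdh5, Calml4 and Car14) and 1 lower (Spint2) in AG-KO mice, or 16.2% beside 14.1%. With 1 to 6 genes behind each share of called genes or of genes at p under 0.05, nothing is read from these differences. These names were chosen after their values were seen. The median log2 fold change of the 37 was 0.17 in Δ3102, 0.10 in AG-KO and -0.13 in NG-KO against WT mice, and 0.15 in AG-KO against NG-KO mice. Several of these genes, such as Igfbp2, Igf2 and Atp2b3, are also expressed by meninges, vessels or neurons.

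The genes most like the mean standardised pattern of the 10 genes over the 14 libraries were F5 (r = 0.925), Kcne2 (0.911), Sostdc1 (0.896), Mfrp (0.895) and Steap1 (0.885), all 5 from that list. As that list was chosen with earlier results of these data known, its share of these names is not independent of them. The next were Mmp28 and Mir148a (both 0.837), Slc4a2 (0.825) and, both at 0.819, Frmpd1os and Trav4n-4, which had signal only in Δ3102 replicate 1. Predicted gene models and symbols ending in Rik were not ranked, among them 1500015O10Rik of the choroid plexus list. Genes needed 0.5 FPKM in at least 1 library. F5, Steap1, Mir148a, Frmpd1os and Trav4n-4 reached it only in Δ3102 replicate 1, so the likeness of these 5 was partly set by the selection. Without that library r was 0.886 for Slc4a2, 0.812 for Kcne2, 0.778 for F5, 0.753 for Mfrp, 0.737 for Steap1, 0.682 for Sostdc1, 0.590 for Mmp28 and 0.377 for Mir148a, in another order. Kcne2 had 599, 16 and 0 counts in Δ3102 mice, 27, 0, 100 and 35 counts in AG-KO mice and 0, 0, 0 and 6 counts in NG-KO mice, against 0, 36 and 27 counts in WT mice. Sostdc1, a secreted BMP and Wnt inhibitor, was at 5.43 FPKM in Δ3102 replicate 1 and at 1.07 to 2.23 FPKM in the other 13 libraries. Mfrp was at 2.15 FPKM in Δ3102 replicate 1 and 0.752 FPKM in AG-KO replicate 3, and at 0.201 FPKM or less in the other 12 libraries.

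Markers of tissues next to the choroid plexus were not high in Δ3102 replicate 1. None of 13 ependymal, 10 meningeal fibroblast, 10 endothelial, 10 oligodendrocyte or 10 hippocampal neuron genes was highest there, and their medians against the other 13 libraries were -0.54, -0.13, 0.11 (oligodendrocyte), 0.10 (endothelial) and -0.14 on the log2 scale. Rpe65 at 0.532 FPKM, 1 of the 10 retinal pigment epithelium and pineal genes, and Slc17a6 at 3.92 FPKM, 1 of the 10 thalamus and habenula genes, were highest there. No gene of the red cell or kidney tubule lists was. More than 1 on the log2 scale above the median of the other 13 libraries were 6 of the 10 kidney tubule genes. So was 1 of the 5 red cell genes, beside 4.46% of tested genes.

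**Figure D4:**
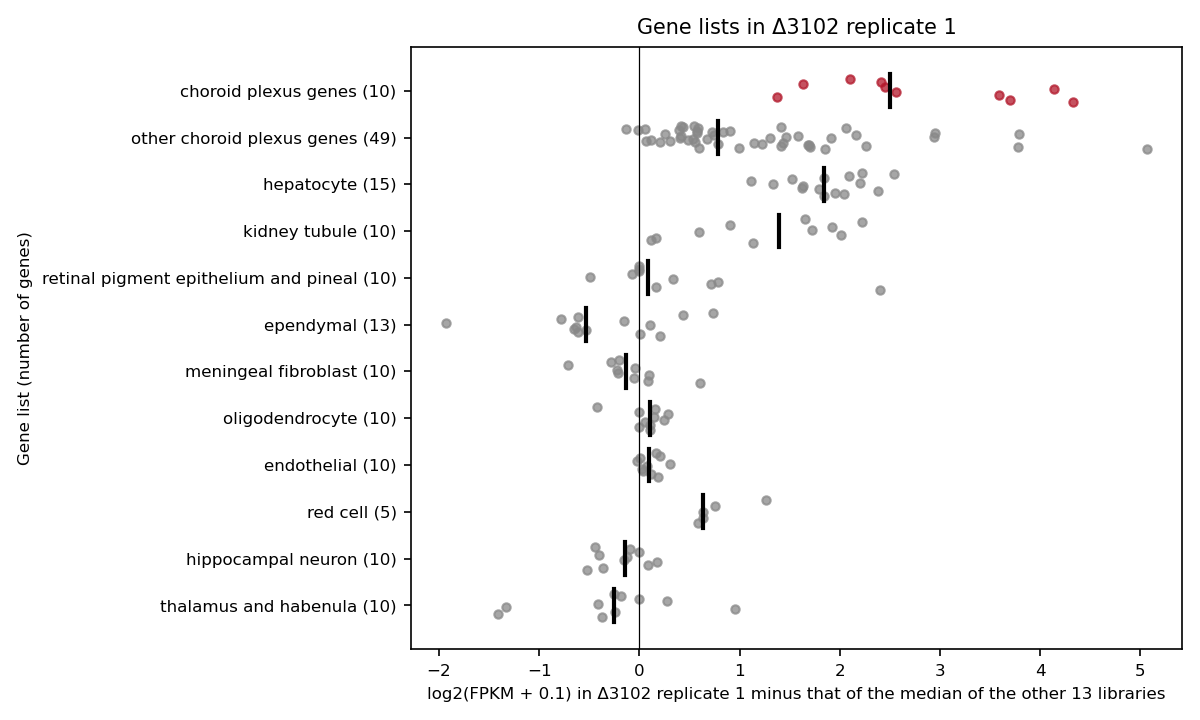
log2(FPKM + 0.1) in Δ3102 replicate 1 minus that of the median of the other 13 libraries (horizontal axis) for every gene of 12 lists. Each point is a gene and black bars are list medians. The 10 choroid plexus genes (red) have a median of 2.503, the 15 hepatocyte genes 1.85, the 10 kidney tubule genes 1.39 and the 13 ependymal genes -0.54.

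Transcripts of liver and kidney varied between these hippocampal libraries too. Hepatocytes also make Ttr, and kidney tubules also express Folr1, Cldn2, Aqp1 and Kl. Alb, the main hepatocyte product, was at 161, 189 and 1.11 FPKM in Δ3102 mice, at 44.8, 1.12, 0 and 0 FPKM in AG-KO mice and at 2.00, 55.8, 41.7 and 49.6 FPKM in NG-KO mice, against 167, 126 and 165 FPKM in WT mice, where 0 stands for the floor of the file. In AG-KO replicate 3, Ttr was at 233.7 FPKM with Alb at the floor and 10 of the 15 hepatocyte genes at the floor. In Δ3102 mice, replicates 1 and 2 had close hepatocyte sums of 637 and 657 FPKM, while Ttr was at 1405 and 92.7 FPKM. All 15 hepatocyte genes were more than 1 on the log2 scale above the median of the other libraries in Δ3102 replicate 1, and 5 (Apoa1, Apoa2, Apoc3, Hpx and Ambp) were highest there.

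Kap, an androgen-regulated gene of the proximal kidney tubule, was at 359, 385 and 349 FPKM in Δ3102 mice, at 127, 77.8, 26.8 and 18.1 FPKM in AG-KO mice and at 1.12, 0.739, 94.6 and 97.7 FPKM in NG-KO mice, against 2.38, 364 and 491 FPKM in WT mice. The 10 kidney tubule genes summed to 374 to 410 FPKM in Δ3102, 23.0 to 137 FPKM in AG-KO and 2.30 to 106 FPKM in NG-KO mice, against 4.50 to 519 FPKM in WT mice. The 10 genes were compared with Alb, Kap and Foxj1 over the 14 libraries, 30 relations in all, and none passed after adjustment over them. The strongest were Cldn2 with Kap (r = 0.685, rho = 0.530), Otx2 with Foxj1 (r = 0.685, rho = 0.684) and Folr1 with Kap (r = 0.652, rho = 0.701), each with a permutation adjusted p of 0.101 for r. Their raw permutation p was 0.00704 for Cldn2, 0.00605 for Otx2 and 0.0101 for Folr1. Within genotypes, r was 0.518 for Cldn2, 0.711 for Otx2 and 0.473 for Folr1. Ttr with Alb had r = 0.296 and rho = 0.407 (permutation adjusted p = 0.622), and r = 0.760 without AG-KO replicates 3 and 4, the 2 libraries farthest from the median of Alb. The part of liver and kidney transcripts in the levels of the 10 genes was not tested.

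**Figure D5:**
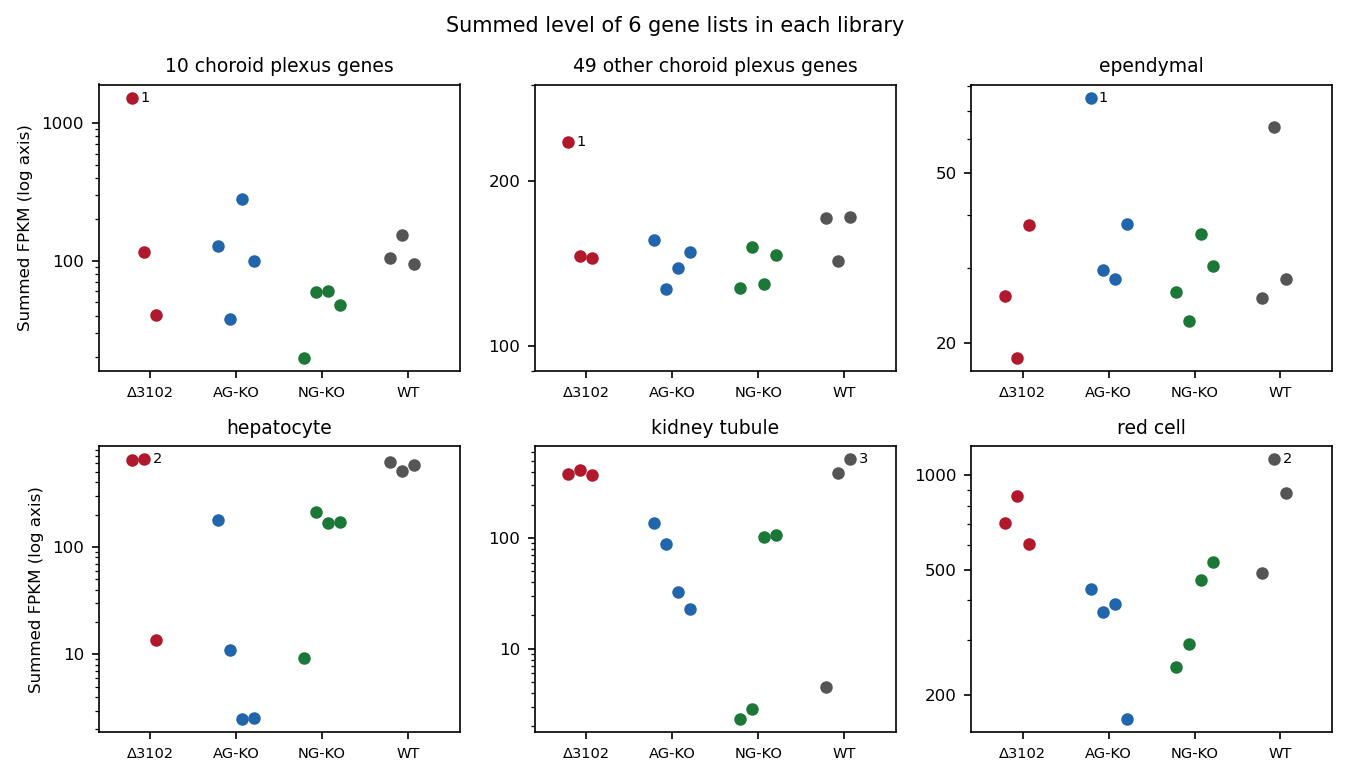
Summed FPKM (log axis) of 6 gene lists in each library, 1 point per mouse, with the replicate number beside the highest. The 10 choroid plexus genes peak at 1533 FPKM in Δ3102 replicate 1, the ependymal genes at 75.2 FPKM in AG-KO replicate 1, and the hepatocyte and red cell genes are lower in AG-KO and NG-KO than in WT mice, but for the red cell genes of 1 NG-KO mouse.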

How the data were processed

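Hippocampal poly(A) RNA of 14 mice was sequenced, 1 library per mouse. Per the paper's methods and the submitters' processing notes, reads were trimmed with cutadapt 1.9 and mapped to GRCm38 with HISAT2 2.0.4. The deposited FPKM values were calculated by the authors with StringTie 1.3.4d and hold 0.0001 where a gene had no signal. The deposited counts are whole numbers that were not normalized, and the program that made them is not given in the sources used here. UMI-tools, DESeq2 and edgeR are named in these notes too, with no role given.

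A single edgeR 4.0.16 model (TMM, quasi-likelihood test, R 4.3.3) with 1 mean per genotype was fitted to the counts of the 14 libraries. The test took the 18059 genes that reached 0.5 FPKM in 3 or more libraries, and p was adjusted over them by Benjamini-Hochberg with a threshold of 0.05. All tests were two-sided. Slc4a5 and Otx2, below this filter, were taken from the fit without it, an alternative added after the data were seen. SEs were derived from the log2 fold change and the F statistic. Relations across libraries used log2(FPKM + 0.1), with 100000 permutations. No 2 libraries, of 91 pairs, held identical values. Alternatives were DESeq2 1.42.0, limma 3.58.1 on log2 FPKM with pseudocounts of 0.1 and 1, RLE scaling, other filters, the 2 groups alone, the replicate number as a block and leaving out each library. The fits were tested on simulated data.

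The 10 genes and the 12 lists were chosen with earlier results of these data known. A gene of the oligodendrocyte list is not reported here and was left out of its sums and of the relations. All 10 genes were named, with up to 4 genes of highest mean FPKM per list and list members past the threshold. Further list members were named outside this rule. Among them, Rpe65, Slc17a6, Apoc3, Hpx and Ambp were named for being highest in Δ3102 replicate 1, a choice made on their values. The 10 genes most like the pattern of the 10 were named too, among genes that reach 0.5 FPKM in at least 1 library. Predicted gene models and symbols ending in Rik were left out of that ranking. Coordinates are those of the file. Promoter windows come from RefSeq on GRCm38.p6. Tables and plots were made with pandas 2.3.3, NumPy 2.4.6, SciPy 1.17.1 and matplotlib 3.10.9.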

Additional observations from a re-analysis of the deposited data

Results flagged for a closer look

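Slc4a5 and Otx2 each had 1 AG-KO library far above the other 3. The gap from the highest to the next library was 0.896 of the range of the AG-KO group for Slc4a5, with replicate 3 at 0.443 FPKM, and 0.926 for Otx2, with replicate 1 at 0.980 FPKM. Both gaps were above Dixon's 95% critical value for 4 libraries, and 20 groups of 4 were examined, of which chance marks about 1. In NG-KO mice the gap was 1 times the range for Slc4a5, where replicate 4 had 15 counts and the other 3 libraries 0. With 3 libraries at 0 this ratio is 1 whatever the other holds, and nothing is read from it.

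Otx2 lay on opposite sides of the WT mean of 0.153 FPKM in 2 pairs of genotypes. All Δ3102 and all AG-KO mice were above it and all NG-KO mice below it. The mean of Δ3102 mice was 0.319 FPKM higher than that of NG-KO mice, a difference that was not tested. The mean of AG-KO mice was 0.470 FPKM higher than that of NG-KO mice, with an edgeR adjusted p of 0.299 and a DESeq2 adjusted p of 0.00737 in the fits without a filter.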

How the results depend on the processing

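The count of the 8 tested genes past an edgeR adjusted p of 0.05 was 0 in each comparison and stayed 0 under every alternative but DESeq2, where it was 1 (Aqp1) in AG-KO and 1 (Aqp1) in NG-KO against WT mice. Leaving out each library in turn left it at 0 to 0 in all 4 comparisons. Over all alternatives the adjusted p of Aqp1 ranged from 0.00897 to 0.317 in AG-KO and from 0.00482 to 0.475 in NG-KO against WT mice. The replicate numbers did not pair mice of different genotypes: of 19 pairs with the same number, 6 had a correlation of deviations over 0.1 (range -0.284 to 0.308), and 2 of 14 libraries correlated best with their own number. With the replicate number as a block the count was 0 in every comparison, and Slc4a5 in AG-KO against WT mice was at -0.75 instead of 1.84.

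Of the log2 fold changes, Ttr in AG-KO against WT mice turned to -0.32 and -0.31 in limma with pseudocounts of 0.1 and 1. Leaving out 1 library gave ranges across 0. Against WT, Δ3102 values ranged from -0.69 to 3.10 for Ttr, -0.73 to 3.47 for Clic6, -0.85 to 3.04 for Kcnj13, -0.12 to 1.80 for Folr1, -6.59 to 10.56 for Slc4a5, -0.063 to 0.73 for Aqp1 and -0.38 to 1.304 for Enpp2, each lowest without Δ3102 replicate 1. AG-KO values ranged from -0.56 to 0.64 for Ttr, -0.77 to 0.25 for Folr1, -1.08 to 8.44 for Slc4a5 and -0.18 to 0.73 for Cldn2, and NG-KO values from -0.92 to 0.52 for Clic6 and -6.63 to 5.04 for Slc4a5. AG-KO against NG-KO values ranged from -0.57 to 0.83 for Kcnj13 and -0.016 to 0.55 for Aqp1. None of these passed the test.

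The number of genes related to Ttr was 8 of 9, 5 with deviations from genotype means and 2 with Spearman's rho, and 0 to 9 when 1 library was left out, with 0 only without Δ3102 replicate 1 and 6 without NG-KO replicate 1. The deviations were permuted over all 14 libraries and not within genotypes, which takes no account of the removed means. Nothing is read from the count of 5. The number of genes highest in AG-KO replicate 3 was 0 with all libraries and 6 without Δ3102 replicate 1. By CPM in place of FPKM, 9 genes were highest in Δ3102 replicate 1. The last 2 alternatives were chosen after seeing the data. Depth limits Slc4a5, with 0 counts in 9 of 14 libraries, and Otx2, with at most 233 counts.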
